A study of Rattus norvegicus with 20 samples.

Results

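The soleus, a slow postural muscle of the calf, was compared after 6 months of sciatic nerve denervation with the soleus of a sham control, to ask which microRNAs (miRNAs) differ in muscle that has long been without its nerve. The arrays were taken by their labels, and the comparison holds 4 of the 20 arrays of the series, 3 of denervated soleus and 1 of sham soleus. All animals were adult male Sprague-Dawley rats. For denervation, the surgeons cut the sciatic nerve above the point where it divides, took out a segment and fixed the tied nerve end in muscle of the upper thigh, away from its former target. What was done in the sham operation is not given in the sources used here. The label of the sham array gives no time after surgery, so whether it matches the 6 months of denervation is not known. Only 1 sham array is labelled although the Methods name 3 rats per group, and it is not stated whether its RNA came from 1 rat or from a pool. The other 6 soleus arrays entered the statistical fit and a second comparison without sham. They hold 3 replicates with the sciatic nerve enclosed in a silastic tube for 6 months (entrapment) and 3 replicates taken 3 months after such a tube had been removed (decompression). Time since the first operation thus differed between entrapment and decompression.

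A miRNA is a short RNA that pairs with messenger RNAs through bases 2 to 8 from its 5′ end, called the seed, and lowers their translation or stability. Skeletal muscle is known for a small set of abundant miRNAs, among them miR-1, miR-133a, miR-133b and miR-206, which act in muscle differentiation, and miR-499, which lies inside a myosin gene and acts in the slow fibre programme. Muscle without a nerve shrinks and takes on connective tissue over the following months.

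The value measured for each miRNA is the signal of the scanner file, scaled so that the 75th percentile of the 108 miRNAs detected on all 10 soleus arrays is the same on each array. It is given in arbitrary units, called the scaled signal here. Signals under a floor of 2.72 were set to it before log2 was taken, so a difference of 1 on the log2 scale is a 2-fold change. The sham array detected 152 of the 348 miRNAs, and denervation 1, 2 and 3 detected 179, 194 and 137. Testing was done with limma on the 173 miRNAs that 3 or more of the 10 arrays detected. The fit took in all 10 arrays and lends the lone sham array the spread of the other groups. Where a miRNA lay under the floor in those groups, the floor narrows that spread and makes its p-value smaller. Adjusted p-values are those of Benjamini and Hochberg, with 0.05 as the threshold. A fold rule was set beside it, which asks for at least a 2-fold difference from sham on each of the 3 denervation arrays. Every difference from sham rests on the 1 sham array, whose own spread between animals is unknown, and p-values measure only the spread between these arrays.

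The 3 denervation arrays were not alike. Denervation 1 and 2 differed by a median of 0.32 on the log2 scale over the 173 miRNAs, and 9.25% of the miRNAs were at least 2-fold apart. Denervation 3 stood apart from both, with 41.0% of the miRNAs at least 2-fold apart from denervation 1 and 33.5% from denervation 2. The median SD over the denervation arrays was 0.50 on the log2 scale, against 0.31 for entrapment and 0.30 for decompression. The files also fall into sets by their layout. The sham array, denervation 1 and denervation 2 share one layout, and denervation 3 has that of the 6 other injury arrays. The brightness of the sham array (75th percentile 409 before scaling) was close to that of denervation 3 (413), while denervation 1 (1426) and denervation 2 (2539) were brighter. Of the signals of at least 20 at control features, which hold no rat miRNA, 11 of 26 on the sham array, 12 of 26 on denervation 1, 15 of 25 on denervation 2 and 8 of 20 on denervation 3 were equal in every digit to some control signal on a different soleus array, and no such miRNA signal of these 4 arrays equalled that of the same miRNA on another array. The part of layout, brightness and these equal signals in the results was not tested.

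The results below turn on the miRNAs printed here, 5′ to 3′ from RefSeq (build GRCr8), with the seed in capitals. The first set rose after denervation. miR-126* and miR-126 are the 2 arms of one hairpin, and miR-148b-3p and miR-152 share a seed.
miR-126*: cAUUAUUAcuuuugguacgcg
miR-126: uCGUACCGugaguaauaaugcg
miR-21: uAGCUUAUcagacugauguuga
miR-322: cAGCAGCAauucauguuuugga
miR-199a-3p: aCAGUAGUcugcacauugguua
miR-672: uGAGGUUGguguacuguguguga
miR-139-5p: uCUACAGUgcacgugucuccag
miR-148b-3p: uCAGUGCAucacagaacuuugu
miR-152: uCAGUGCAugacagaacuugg
The second set fell. miR-494, miR-300-3p, miR-329 and miR-127 lie in one imprinted region of chromosome 6, and miR-743a and miR-878 lie together on chromosome X.
miR-494: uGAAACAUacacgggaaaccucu
miR-300-3p: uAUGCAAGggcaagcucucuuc
miR-329: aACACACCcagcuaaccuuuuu
miR-127: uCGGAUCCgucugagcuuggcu
miR-204: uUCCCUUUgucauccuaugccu
miR-188: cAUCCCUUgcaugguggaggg
miR-874: cUGCCCUGgcccgagggaccga
miR-743a: gAAAGACGccaaacuggguaga
miR-878: gCAUGACAccauacuggguaga
The third set shows near-identical or seed-sharing sequences of which some were called and some were not, the difference between them being untested. miR-1 and miR-206 differ at 3 of 22 positions, miR-133a and miR-133b at 1 of 22, and miR-26a and miR-26b at 2 of the 21 positions they have in common. miR-30c, miR-30a and miR-30e share their seed.
miR-1: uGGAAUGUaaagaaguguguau
miR-206: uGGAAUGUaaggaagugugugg
miR-133a: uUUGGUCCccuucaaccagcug
miR-133b: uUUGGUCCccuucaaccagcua
miR-26a: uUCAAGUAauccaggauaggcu
miR-26b: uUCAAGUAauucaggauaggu
miR-30c: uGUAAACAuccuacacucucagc
miR-30a: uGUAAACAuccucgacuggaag
miR-30e: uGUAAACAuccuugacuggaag
Of the 348 miRNAs, 151 were matched to a RefSeq mature sequence. How far the probes of the array tell such neighbours apart is not given in the sources used here.

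limma called 19 of the 173 miRNAs higher (11%) and 26 lower (15%) after denervation than in sham. Each of these 45 miRNAs differed from sham in the same direction on all 3 denervation arrays. Since the calls were made on these same arrays, this agreement is largely built in and is not separate support. The fold rule called 27 higher (15.6%) and 32 lower (18.5%), and 18 and 25 of the limma calls met it as well. The median log2 difference of all tested miRNAs was -0.07. Among the 19 higher miRNAs, 8 were not detected on the sham array, so that their fold is a lower bound where the denervation arrays detected them. All 3 denervation arrays detected 15 of the 19. The sham array detected 25 of the 26 lower miRNAs, and all 3 denervation arrays detected 12 of them. With denervation 3 left out, limma called 25 higher and 27 lower, which included all 19 of the higher and 24 of the lower miRNAs, miR-337 and miR-411 being the exceptions. The calls lean on the arrays used and on the scaling. Fitted on the sham and denervation arrays alone, limma called 1 higher, miR-126*, and 0 lower (22 and 28 at an unadjusted p under 0.05). With no scaling the median of all tested miRNAs moved to 1.32, and limma called 10 higher and 0 lower (34 and 2 at an unadjusted p under 0.05), so the lower calls are statements relative to the bulk of the miRNAs on the array. Of the 19 higher miRNAs, 9 were called by limma in each of 5 other scalings, and these were miR-126*, miR-21, miR-199a-3p, miR-322, miR-26b, miR-30b-5p, miR-30c, miR-672 and miR-1.

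**Figure D1:**
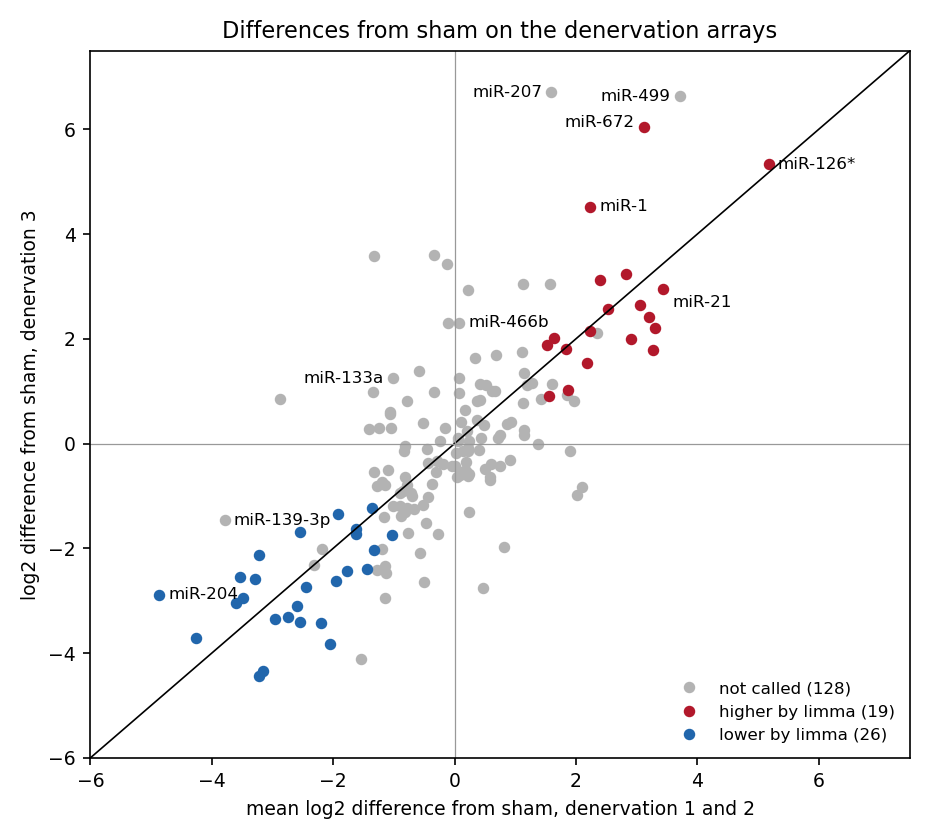
Log2 difference from sham on denervation 3 (y axis) against the mean log2 difference on denervation 1 and 2 (x axis) for the 173 tested miRNAs, 1 point each, with the line of equality. The 19 miRNAs called higher and the 26 called lower by limma lie in the upper right and lower left. miR-207, miR-499, miR-672 and miR-1 lie well above the line, their scaled signal being higher on denervation 3 than on denervation 1 and 2.

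The largest rise among the tested miRNAs was that of miR-126*, whose hairpin lies within the span of Egfl7, a gene of the endothelium, the inner lining of blood vessels (mature miRNA at chr3:29813182-29813202, plus strand). Its scaled signal was 2.58 on the sham array, where it was not detected, and 108, 89.5 and 109 on denervation 1, 2 and 3. All denervation arrays lay far above sham and close to each other, and the rise was 37.5-fold against the floor (log2 difference 5.23 ± 0.16, SD, n = 3, limma adjusted p = 4.53e-05). The other arm, miR-126, the endothelial miRNA of the pair, rose from 379 to 1099, 1081 and 1396, a 3.12-fold change (1.64 ± 0.21, SD, n = 3, adjusted p = 0.0145). The sham array lay under all 3 denervation arrays in each, as it did for all 19 miRNAs called higher, so this is not separate support. They were the 2 called among the 4 miRNAs of the endothelium and smooth muscle list (median 0.52), beside 11% higher and 15% lower of all tested miRNAs. miR-143 and miR-145, which mark smooth muscle, were not called. Their log2 differences were -1.13 (adjusted p = 0.0598) and -0.60 (adjusted p = 0.350). miR-143 passed the threshold with denervation 3 left out, at -1.29 (adjusted p = 0.0240).

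miR-21, a miRNA that rises in injured and scarring tissue, went from 183 on the sham array (scanner error 8.11%) to 2042, 1926 and 1415, or 9.69-fold (log2 difference 3.28 ± 0.28, SD, n = 3, adjusted p = 0.000845). Its hairpin is at chr10:71902600-71902691, outside the span of any other annotated gene. miR-199a-3p, a miRNA of mesenchymal cells (mature miRNA at chr13:77116294-77116315, within Dnm3), rose from 138 to 562, 736 and 613, or 4.60-fold (adjusted p = 0.00424). In both, the denervation arrays lay close together and far above sham. They were the 2 members called among the 9 tested of the fibroblast and fibrosis list, whose median was -0.06, and with 11% of all tested miRNAs called higher a count of 2 in 9 is near the background. The miR-29 family, whose targets include collagens, gave -0.79 for miR-29a, -0.93 for miR-29c and 0.73 for miR-29b, with adjusted p of 0.113, 0.0940 and 0.359.

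miR-322, which acts in the withdrawal of muscle precursors from the cell cycle (hairpin chrX:137726147-137726241), rose from 23.3 to 165, 164 and 219, or 7.77-fold (log2 difference 2.96 ± 0.24, SD, n = 3, adjusted p = 0.000845). It shares its seed AGCAGCA with miR-15b, miR-16, miR-195 and miR-497, of which none passed limma. miR-15b stood just outside at 1.55 (adjusted p = 0.0504), miR-195 met the fold rule at 1.32 (adjusted p = 0.0797), and miR-16 and miR-497 gave -0.14 and 0.20. These 4 were named after their values were seen. miR-26b, whose hairpin lies within Ctdsp1 (chr9:83425709-83425793), rose from 194 to 1763, 1460 and 1209, or 7.54-fold (2.92 ± 0.27, SD, n = 3, adjusted p = 0.000465). Its near-twin miR-26a, from another gene of the same family, Ctdspl (chr8:127633048-127633137), went from 4258 to 5375, 4633 and 3995, a log2 difference of 0.12 (adjusted p = 0.815). The sham array thus lay within the range of the denervation arrays for miR-26a and far under it for miR-26b.

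Of the 11 tested miRNAs of the miR-30 family, 3 were called higher and 0 lower, beside 11% and 15% of all tested miRNAs. miR-30c rose from 534 to 5879, 4101 and 2861, or 7.69-fold (adjusted p = 0.00679), miR-30b-5p from 208 to 1986, 1219 and 830, or 6.06-fold (adjusted p = 0.0109), and miR-30e* from 65.1 to 326, 270 and 188, or 3.92-fold (adjusted p = 0.0359). In each of these 3 all denervation arrays were above sham, with denervation 1 the highest and denervation 3 the lowest. miR-30a, miR-30d and miR-30e were under sham on each denervation array and were not called, with log2 differences of -0.63, -0.76 and -0.87. The family median was 0.10, beside -0.07 for all tested miRNAs, and 6 of the 11 lay above sham, or 5 with quantile scaling and 10 with no scaling. miR-30e* remained called in 4 of the 9 fits that left out 1 injury array (largest adjusted p 0.0778).

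miR-148b-3p, not detected on the sham array, read 3.94 there and 44.4, 32.7 and 13.6 after denervation, 6.86-fold above the sham reading (adjusted p = 0.0103). miR-152 has the same seed, CAGUGCA, and was not detected on the sham array either. It read 11.1 there and 39.8, 39.0 and 38.7 after denervation, 3.54-fold above the sham reading (adjusted p = 0.0173). These are the only tested miRNAs matched to that seed. miR-335 read 0.0588 on the sham array, not detected, and 21.4, 9.66 and 23.6 after denervation, 6.25-fold higher against the floor (adjusted p = 0.0197). miR-672, within the span of Nexmif (chrX:73192304-73192383), read 6.27 on the sham array, not detected, and 53.9, 54.9 and 412 after denervation. It was 17.0-fold above the sham reading (4.09 ± 1.69, SD, n = 3, adjusted p = 0.0197). Denervation 3 was far above the other denervation arrays there, and without it the log2 difference was 3.12 (adjusted p = 0.00435). miR-139-5p read 1.32 on the sham array, not detected, and 37.5, 19.1 and 12.5 after denervation, 7.64-fold higher against the floor (adjusted p = 0.0372). It kept its call in only 3 of the 9 fits that left out 1 injury array (largest adjusted p 0.0796) and in 0 of the 5 other scalings. miR-196a, from the Hox clusters, was 3.01-fold higher (adjusted p = 0.0215), miR-192 3.40-fold (adjusted p = 0.0215) and miR-760-5p 5.84-fold (adjusted p = 0.00244), the last 2 not detected on the sham array. Without denervation 2 the first 2 of these had adjusted p of 0.0548 and 0.0547. miR-192 read 6.85, 10.4 and 11.0 on denervation 1, 2 and 3, near the floor. Only 1 of the 3 denervation arrays detected miR-192, and 1 of the 5 other scalings kept its call. miR-760-5p, miR-192, miR-152 and miR-196a were named after their values were seen. Of the 10 soleus arrays, only the 3 denervation arrays detected miR-760-5p, so it entered the test only through the group where it is high.

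**Figure D2:**
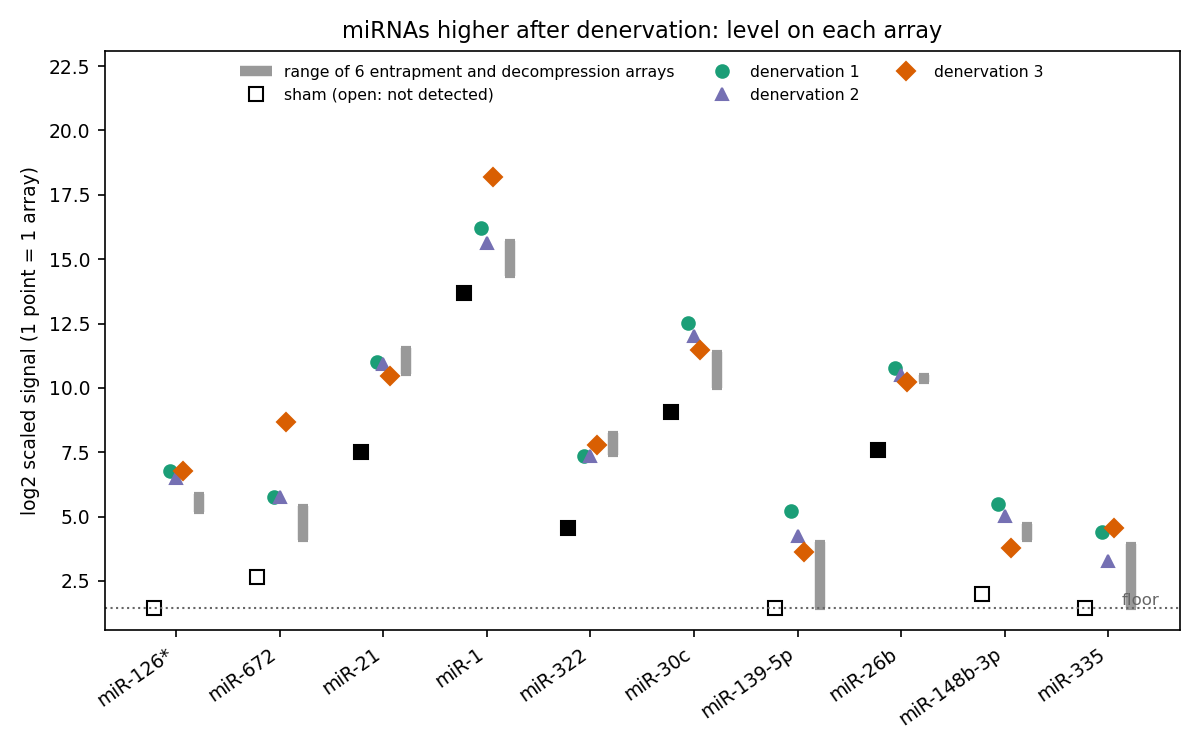
Log2 scaled signal on each array (y axis) for the 10 miRNAs with the largest mean rise among those past limma's threshold and the fold rule (x axis). Squares are the sham array, open where the miRNA was not detected, the coloured points are denervation 1, 2 and 3, the grey bars span the 6 entrapment and decompression arrays, and the dotted line is the floor. The sham array lies under every denervation array in all 10, and denervation 3 stands high for miR-672 and miR-1.

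Of the 7 muscle miRNAs on the array, 6 were tested, 1 was called higher and 1 lower, with a median log2 difference of 0.52, which is near the 11% and 15% called over all tested miRNAs. miR-1, miR-133a, miR-133b and miR-206 were detected on all 4 arrays, which fits the label of skeletal muscle, and miR-208, a miRNA of the heart, on none. miR-1 (hairpin chr18:2160327-2160413, minus strand, within Mib1) rose from 13070 on the sham array to 75530, 50410 and 301000, or 8.01-fold (3.00 ± 1.35, SD, n = 3, adjusted p = 0.0358). Denervation 3 was the highest by far on the scaled signal, and without it the log2 difference was 2.24 (adjusted p = 0.0237). Before scaling, miR-1 read 98538, 117065 and 113754 on denervation 1, 2 and 3, so the height of denervation 3 comes with its scale factor of 2.65. The call was lost without entrapment 2 or without decompression 1 (largest adjusted p 0.0568), and the direction itself depends on which deposited source is read, as given further on. miR-133a lies on the same chromosome next to miR-1 (chr18:2157872-2157958) and is transcribed with it. It read 6537 on the sham array and 3806, 2743 and 15570 after denervation, a log2 difference of -0.26 (adjusted p = 0.843), lower on denervation 1 and 2 and higher on denervation 3. Before scaling, the denervation arrays read 4966, 6370 and 5883. miR-133b (chr9:30594582-30594665), which forms a pair with miR-206 on chromosome 9, fell from 184200 to 63730, 45760 and 34080, or 3.98-fold (-1.99 ± 0.45, SD, n = 3, adjusted p = 0.0167), a call that was lost with loess scaling and with none. miR-206 (chr9:30590697-30590780), a miRNA of regenerating muscle and of the neuromuscular junction, read 3799 on the sham array and 2746, 2359 and 9910 after denervation (log2 difference 0.08, adjusted p = 0.960). The difference between the members of a pair was not tested, and the sham array lay among the denervation arrays for miR-133a and miR-206. miR-499 (hairpin chr3:164570612-164570676, within the myosin gene Myh7b) read 3.35 on the sham array, where it was not detected, and 32.5, 59.6 and 333 after denervation. Before scaling, miR-499 read 42.4, 138 and 126 on the denervation arrays. It met the fold rule, 25.8-fold above the sham reading, but its spread was wide and limma did not call it (4.69 ± 1.74, SD, n = 3, adjusted p = 0.117). The star strand miR-1* was detected on 1 of the 4 arrays only, denervation 3.

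The list with the most lower calls was that of the Dlk1-Dio3 imprinted locus, a region of chromosome 6 in which many miRNAs are transcribed from the maternal chromosome. The array carries 47 miRNAs of the list drawn up for it, 16 were tested, and limma called 10 lower and 0 higher, beside 15% and 11% of all tested miRNAs. The median log2 difference was -2.58 over the 16, against -0.07 over all tested miRNAs. It stayed negative under each of the 5 other scalings, from -2.56 with median scaling to -0.73 with none, and 2.05 under the median of all tested miRNAs in the latter. miR-494 (hairpin chr6:134550115-134550197) fell from 10290 on the sham array to 269, 1066 and 789, or 16.9-fold (-4.08 ± 1.04, SD, n = 3, adjusted p = 0.00244). It made up most of the summed scaled signal of the list on the sham array, which was 11390 there and 660, 1330 and 1288 after denervation. On the 6 entrapment and decompression arrays that sum ran from 304 to 575, so the low level was not particular to denervation. A fall after injury and a high single sham array cannot be told apart here. miR-300-3p (chr6:134559918-134559996) fell from 150 to 17.8, 10.09 and 19.4, or 9.88-fold (adjusted p = 0.0115), and miR-329 (chr6:134547913-134548009) from 146 to 14.8, 10.6 and 24.98, or 9.26-fold (adjusted p = 0.0123). miR-127, which lies antisense to Rtl1 (chr6:134328454-134328550), fell from 119 to 29.4, 16.1 and 17.8, or 5.84-fold (adjusted p = 0.0130), and miR-136 from 209 to 47.2, 27.1 and 64.5, or 4.80-fold (adjusted p = 0.0190). The others called lower were miR-337 (-3.06), miR-411 (-2.83), miR-410 (-2.77), miR-341 (-2.65) and miR-376a (-2.61), each with the sham array above all 3 denervation arrays. miR-337 kept its call in 2 and miR-411 in 7 of the 9 fits that left out 1 injury array (largest adjusted p 0.09998 and 0.0758).

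By position, 14 of the 16 tested members formed 2 groups of hairpins with gaps of at most 50000 bases. The other 2, miR-299 (log2 difference 0.70) and miR-409-3p (-0.85), were not called and had no matched hairpin. From chr6:134321142 to 134347910, 4 of 5 tested miRNAs fell, with miR-434 (log2 difference -0.41, adjusted p = 0.670) as the exception. From chr6:134543445 to 134579838, 6 of 9 fell. The 3 not called among these 9 were miR-379 at -1.57, miR-487b at 0.77 and miR-539 at 1.77. miR-539 met the fold rule in the other direction, with 8.81 on the sham array and 19.5, 19.1 and 73.2 after denervation (adjusted p = 0.155). Neighbouring hairpins of one region thus differed from sham in opposite directions, though the rise of miR-539 did not pass limma.

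The array carries 10 miRNAs of the X-linked cluster known for its expression in testis. Only 2 of them were tested, and limma called 2 lower, beside 15% of all tested miRNAs. So few tested members do not speak for the cluster. miR-743a (mature miRNA chrX:150444098-150444119) went from 153 to 18.3, 14.7 and 7.09, or 12.3-fold (adjusted p = 0.000845), and miR-878 (hairpin chrX:150474253-150474329) from 153 to 19.3, 15.4 and 7.54, or 11.7-fold (adjusted p = 0.000845). The mature sequences have 18 of 22 positions in common and the values ran almost in step on all 4 arrays, and whether they are separate measurements was not tested. Neither was detected on any of the 6 entrapment and decompression arrays, so their small p-values rest in part on signals set to the floor.

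miR-204, carried within Trpm3 (hairpin chr1:229743461-229743570), had the largest fall among the 173 tested miRNAs. It went from 504 on the sham array (scanner error 17.1%) to 13.3, 22.6 and 68.2, or 18.4-fold (-4.20 ± 1.20, SD, n = 3, adjusted p = 0.00704). miR-188 (chrX:17919585-17919664, within Clcn5) fell from 159 to 12.2, 14 and 19.4, or 10.7-fold (adjusted p = 0.000385), and miR-874 (chr17:6626032-6626107, within Klhl3) from 62.1 to 7.04, 8.99 and 6.12, or 8.51-fold (adjusted p = 0.000385). The denervation arrays lay close together in these 2, with SDs of 0.34 and 0.28 on the log2 scale. Neither was detected on the 6 entrapment and decompression arrays, so their small p-values rest in part on signals set to the floor. miR-320 fell 7.59-fold (154 to 20.7, 25.9 and 15.7, adjusted p = 0.00244). miR-181a and miR-181b, which share the seed ACAUUCA and act in muscle differentiation, were 2.49-fold and 2.40-fold lower (adjusted p = 0.0243 and 0.0467), and miR-92a of the miR-17-92 cluster was 2.96-fold lower (adjusted p = 0.0359). These 3 stood near the threshold. miR-181a was lost without denervation 2 (adjusted p = 0.0661), while miR-181b remained called in 3 and miR-92a in 4 of the 9 fits that left out 1 injury array (largest adjusted p 0.0902 and 0.0568). On the list for muscle regeneration and satellite cells, miR-322 was called higher and miR-181a and miR-181b lower among 8 tested, with a median of -0.11, near the 11% and 15% of all tested miRNAs. Of the 5 other scalings, 2 kept the call of miR-181a, 0 that of miR-181b and 1 that of miR-92a. Of the 7 tested miRNAs of the miR-17-92 cluster and its paralogs, miR-92a was the only one called, and the list median was -0.80. Named after their values were seen, miR-324-3p (967 to 103, 105 and 222), miR-130a (752 to 189, 207 and 297), miR-99a*, miR-532-5p and miR-193* complete the 26, with falls of 1.63 to 2.85 on the log2 scale. miR-193* read 16.8 on the sham array and 4.53, 4.14 and -2.83 after denervation. None of the 6 entrapment and decompression arrays detected it, so it was tested only through the groups where it is high. Its small p-value rests in part on signals set to the floor. Of the 10 tested miRNAs of the let-7 family, which are abundant in differentiated tissue, 0 were called by limma or by the fold rule, and their log2 differences ran from -0.90 to 1.13. At an unadjusted p under 0.05, 41 of all tested miRNAs were lower and 27 higher.

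**Figure D3:**
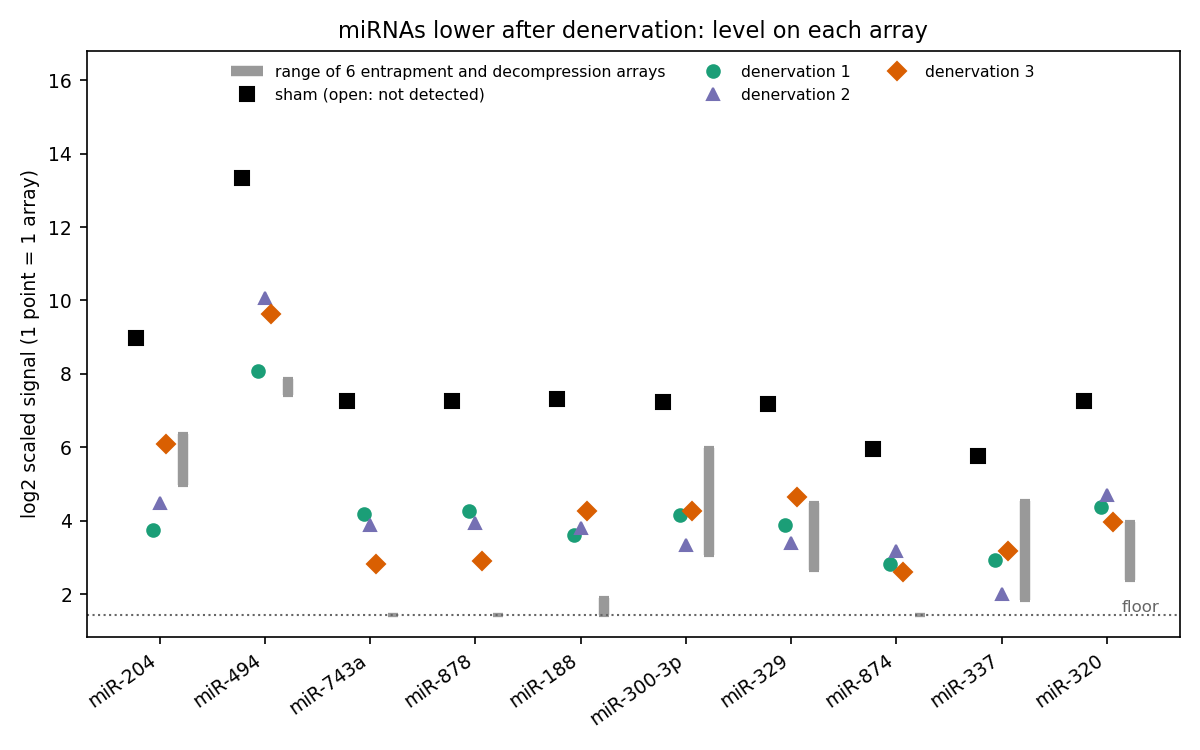
Log2 scaled signal on each array (y axis) for the 10 miRNAs with the largest mean fall among those past limma's threshold and the fold rule (x axis). Squares are the sham array, coloured points denervation 1, 2 and 3, grey bars the span of the 6 entrapment and decompression arrays, and the dotted line is the floor. The sham array lies above every other array in all 10 miRNAs.

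Several hairpins gave unequal arms. From the hairpin of miR-139 (chr1:165290859-165290926, within Pde2a), miR-139-5p was higher than sham by 3.79, 2.81 and 2.20 on the log2 scale and miR-139-3p lower by values of -4.10, -3.47 and -1.46, and only the first passed limma (adjusted p = 0.0372 and 0.113). From that of miR-30e (chr5:139637450-139637541, within Nfyc), miR-30e* was higher by 2.32, 2.05 and 1.53 while miR-30e gave -0.77, -0.93 and -0.90 (adjusted p = 0.0359 and 0.257). miR-199a-3p was higher by 2.03, 2.42 and 2.16 while miR-199a-5p gave -1.82, -0.85 and -0.54 (adjusted p = 0.00424 and 0.215). In these 3 pairs the arms lay on opposite sides of sham on each denervation array. These pairs were chosen after their values were seen, and the difference between arms was not tested.

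The lists for other cell types were read for their makeup, since a whole muscle holds vessels, nerve, blood and connective tissue, and since fewer cells of a type and less RNA per cell cannot be told apart in such a sample. Of the 9 neuronal miRNAs on the array, 2 were tested and 0 called. miR-9, miR-9*, miR-124 and miR-124* were not detected on any of the 4 arrays. The summed scaled signal of the list was 356 on the sham array and 451, 492 and 453 after denervation. Of the 3 tested glial miRNAs, miR-219-5p was called lower (14.3 on the sham array, not detected, and 5.20, 5.35 and 0.203 after denervation, adjusted p = 0.0257), a result that rests on signals near the floor. miR-338, an abundant miRNA of myelinating cells, gave 93.9 on the sham array and 46.7, 63.8 and 166 after denervation. The red blood cell miRNAs miR-451 and miR-144 summed to 1244 on the sham array and to 1038, 2383 and 231 after denervation, so that denervation 3 held the least, and neither was called. Of 5 tested leukocyte miRNAs, miR-223, a miRNA of myeloid cells, was called higher, at 2.53-fold (69.9 against 162, 259 and 132, adjusted p = 0.0490), and remained called in 1 of the 9 fits that left out 1 injury array (largest adjusted p 0.0979). miR-142-3p, found in all blood-forming cells, gave -1.04 (adjusted p = 0.178). The summed leukocyte signal was 820.5 on the sham array and 683, 1014 and 628 after denervation. The part of blood, vessel or nerve content in the results was not tested.

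**Figure D4:**
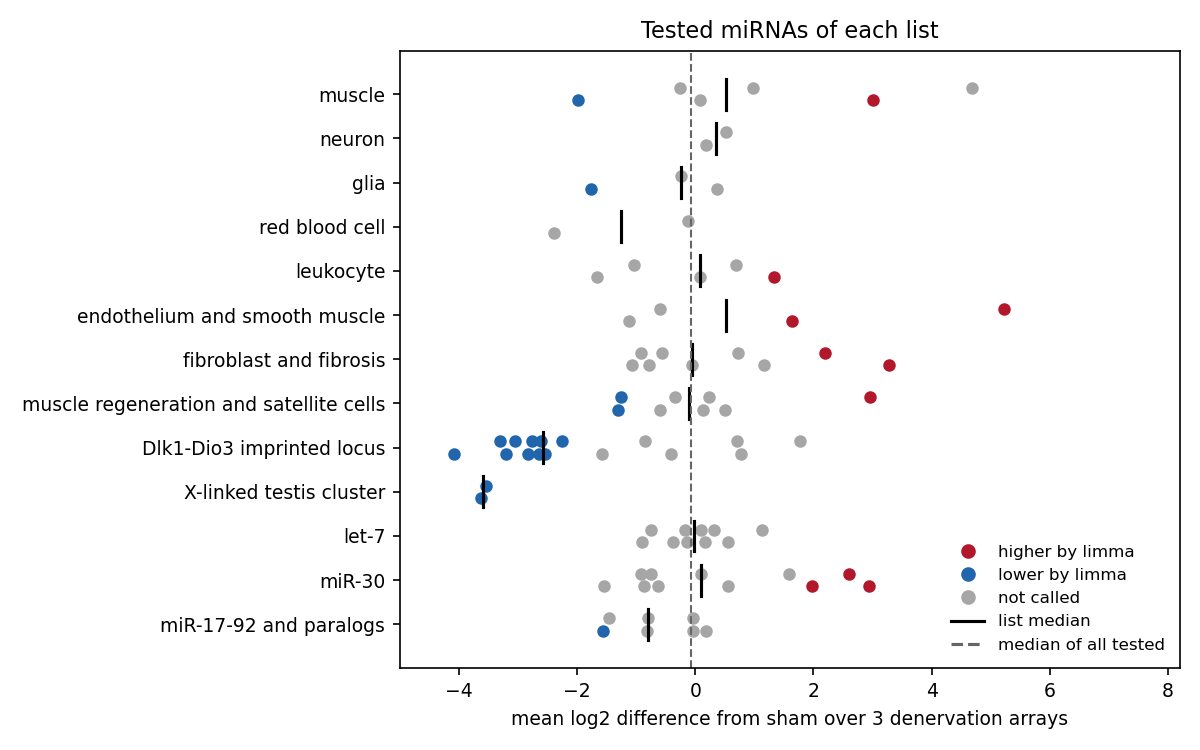
Mean log2 difference from sham over the 3 denervation arrays (x axis) for the tested miRNAs of each list (y axis), coloured by limma's call, with the median of each list as a black bar and that of all tested miRNAs (-0.07) as a dashed line. The Dlk1-Dio3 locus stands apart, with a median of -2.58 and 10 of 16 members called lower, while the let-7 family has 0 calls.

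The study singles out 7 miRNAs for denervated soleus, miR-1, miR-499, miR-139-3p, miR-133a, miR-204, miR-466b and miR-329, and for these the result depends on which deposited source is read. Beside the scanner files stands the authors' own table of processed signals, which equals the scanner signal divided by a constant for each array (100 for the sham array, denervation 1 and denervation 2, and 38.7 for denervation 3). Over all soleus arrays, 27 values of at least 20 departed from that rule by more than 1%. Of these, 24 belonged to the 7 miRNAs named above and 3 to miR-17-3p, and in 7 of the 27, all of miR-499, the table and the file differed by a factor of 10 to within 0.1%. On the sham and denervation arrays, 9 values of the 7 miRNAs departed. The signal of miR-1 on the sham array was 4895 in the scanner file and 48095 in the table once multiplied by its constant, and on denervation 3 it was 113754 and 52444. From the table, scaled and fitted like the scanner values, miR-1 changed sign, from 3.00 to -0.67 (adjusted p = 0.517). The signal of miR-499 on denervation 3 was 126 in the file and 12.6 in the table, which gave a difference of 3.58 (adjusted p = 0.178) in place of 4.69. miR-133a gave -0.76 (adjusted p = 0.300) in place of -0.26, and miR-466b 0.82 under both sources (adjusted p = 0.515 from the scanner files), with 131 on the sham array and 126, 151 and 646 after denervation. In miR-466b, denervation 3 alone was above sham by more than the spread of the other arrays. On the lower side, miR-329 gave -4.43 from the table (adjusted p = 0.0114) and -3.21 from the files, and miR-204 gave -3.53 (adjusted p = 0.0133) and -4.20, so both were called from either source. miR-139-3p gave -3.01 from the files, not called (adjusted p = 0.113), and -5.54 from the table (adjusted p = 2.03e-05). As deposited, with no scaling, the table gave log2 differences from sham of 1.04, 1.28 and 1.495 for miR-1 and 1.02, 1.38 and 1.14 for miR-133a. The cause of the departures was not tested. Since these 7 miRNAs were chosen on these samples, their directions are not independent evidence.

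**Figure D5:**
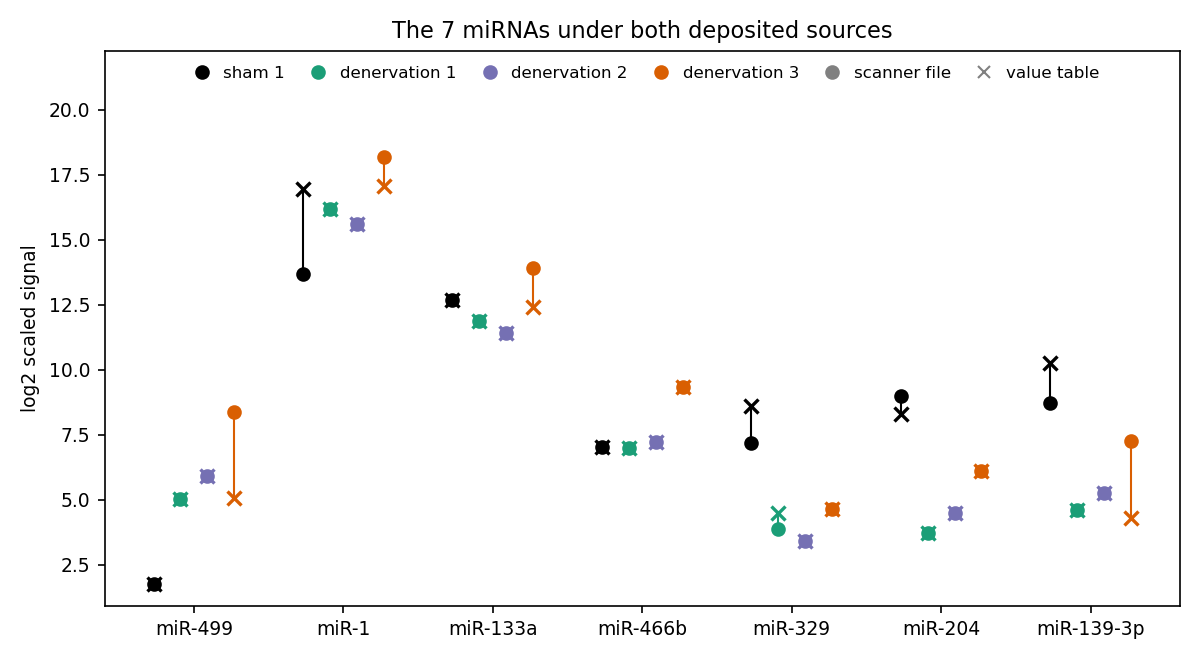
Log2 scaled signal (y axis) of the 7 miRNAs that the study names for denervated soleus (x axis) on the sham array and denervation 1, 2 and 3, from the scanner files (circles) and from the table of processed values multiplied by its constant for each array (crosses). The sources part on the sham array for miR-1, miR-139-3p, miR-204 and miR-329, on denervation 1 for miR-329, and on denervation 3 for miR-1, miR-133a, miR-139-3p and miR-499.

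A second comparison, without the sham array, set denervation against the mean of entrapment and decompression, to ask where muscle with a cut nerve differs from muscle with a compressed or released one. limma called 25 of the 173 miRNAs higher (14.5%) and 2 lower (1.16%) after denervation, where the median difference of all tested miRNAs was 0.24. The 2 lower miRNAs were miR-29a and miR-29c, at 2434 ± 291 and 2427 ± 421 (SD, n = 3) after denervation, against 4365 ± 594 and 3762 ± 629 after entrapment and 4935 ± 683 and 4704 ± 597 after decompression. Their log2 differences were -0.93 ± 0.21 and -0.80 ± 0.22 (SE, adjusted p = 0.0170 and 0.0353), and no denervation array overlapped any of the 6 others. miR-29a and miR-29c share their seed, and how far the probes tell them apart is not given in the sources used here. The other arm of the miR-29a hairpin, miR-29a*, was among the 25 higher, at 1.62 ± 0.29 (SE, adjusted p = 0.00614). It was named after its values were seen. Among the higher miRNAs, miR-126* was at 102 ± 11.1 (SD, n = 3) after denervation against 50.9 ± 12.8 and 51.6 ± 7.59, a difference of 1.01 (adjusted p = 0.0203), and miR-223 at 184 ± 66.3 against 86.1 ± 17.0 and 82.1 ± 7.44 (1.09, adjusted p = 0.0203). miR-212, an activity-linked neuronal miRNA, was at 266 ± 64.3 against 117 ± 27.4 and 145 ± 15.9 (1.01, adjusted p = 0.0203). In these 3 the denervation arrays all lay above the others, as they did for 31 of all 173 tested miRNAs, while 7 lay under them without overlap. Of the 25 higher miRNAs, 4 were also called higher than sham, miR-126*, miR-223, miR-139-5p and miR-760-5p.

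For 6 miRNAs the denervation arrays lay under sham and above the other injury groups, and both differences passed limma. For miR-494 and miR-320 the log2 difference from the other injury groups was 1.63 and 1.09 (adjusted p = 0.0203 and 0.0325). The other 4 were not detected on any of the 6 entrapment and decompression arrays, so that they were tested only through the groups where they are high, and only a bound can be given. Denervation was at least 4.59-fold higher for miR-188, 4.24-fold for miR-878, 4.02-fold for miR-743a and 2.37-fold for miR-874, each detected on 2 of the 3 denervation arrays. miR-760-5p, at least 5.14-fold higher, was also not detected on any of the 6, and entered the test only through denervation. miR-494 read 10290 in sham, 708 ± 404 (SD, n = 3) after denervation, 190 ± 18.5 after entrapment and 207 ± 23.7 after decompression. By contrast miR-21 was at 1795 ± 334 after denervation, 2278 ± 731 after entrapment and 1738 ± 322 after decompression, a difference of -0.13 ± 0.27 (SE, adjusted p = 0.764), and miR-322, miR-26b and miR-204 also did not pass (adjusted p = 0.389, 0.564 and 0.506). Control features also parted the arrays of this comparison. Of the 45 control features, 3 were higher and 10 lower on all denervation arrays than on all 6 entrapment and decompression arrays, and 12 parted sham and denervation from those 6, so the kind of injury and how the arrays were handled cannot be told apart here. The split between higher and lower calls depended on the scaling. It was 15 higher and 26 lower with the 75th percentile taken over all miRNAs, 6 and 7 with quantile scaling, and 22 and 5 with median scaling, and without denervation 3 it was 38 and 11. All 27 miRNAs kept their direction in each of the 5 other scalings. The calls of miR-188 and miR-760-5p were kept in all 5, and those of miR-126* and miR-320 in 0.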

How the data were processed

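Total RNA of rat soleus was read on single-colour Agilent rat miRNA arrays. Per the labels it was amplified with Cy3-labelled CTP, while the Methods describe ligation of pCp-Cy3, and which was used cannot be told from these. The deposited scanner files hold, for each miRNA, the total gene signal, an intensity on a linear scale that the authors obtained with Agilent Feature Extraction 9.5.3, its error and a detection call. A second deposited source is the authors' value table, a linear signal relative to a constant of each array. GeneSpring and rank-consistency LOWESS appear in the Methods without settings, with a 2-fold change as the limit.

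Of 350 miRNAs in each file, 348 had 1 name throughout. Scaling brought the 10 soleus arrays to one 75th percentile, taken over the 108 miRNAs that every array detected, since each array detected only 134 to 194 of the 348, and signals were then floored at 2.716 and taken to log2. The 173 miRNAs detected on 3 or more arrays were fitted with limma 3.58.1 (R 4.3.3) by group, with 6 residual and 3.066 prior degrees of freedom, and Benjamini-Hochberg adjustment over all 173. No other covariate entered. The number of arrays, 3 and 1, limits the precision. Arrays were grouped by their labels, and all columns used belong to a named sample. Sequences and positions came from RefSeq (GRCr8), matched by exact name or by a hand-made table of arm names, and gene spans do not tell exon from intron. Tables and figures were made with Python 3.11.15, pandas 2.3.3 and matplotlib 3.10.9.

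The miRNAs, lists and tests were chosen with earlier results of these data known. Named were the 7 miRNAs the study lists for denervated soleus, the 10 highest and 10 lowest that passed both limma and the fold rule, all muscle miRNAs, and from each other list the called members and up to 3 of the brightest. The lists were muscle, neuron, glia, red blood cell, leukocyte, endothelium and smooth muscle, fibroblast and fibrosis, muscle regeneration, the Dlk1-Dio3 locus, the X-linked testis cluster, let-7, miR-30 and miR-17-92. On simulated data with 40 of 173 miRNAs changed by 2 on the log2 scale, limma recovered 27 with 0 false calls, and the fold rule 30 with 3 false calls. The simulated noise was normal and independent, and the sham array varied like the others. No floor, scaling or difference in brightness was simulated, so these counts do not give the error rate of the real data. Alternatives were other scalings, filters, floors, fold limits, the processed values, fewer arrays, an intensity trend, a replicate block and leaving out each injury array. The rescaled processed values were added after seeing the data.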

Additional observations from a re-analysis of the deposited data

Results flagged for a closer look

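Of the 27 miRNAs that passed limma between denervation and the mean of entrapment and decompression, a comparison that does not use the sham array, 18 are among those named by rule and are given here, since the effects of the injuries against the shared sham array differed. The differences are fitted values on the log2 scale with signals under the floor set to it. Among miRNAs detected in both other injury groups, denervation was higher by 2.41 for miR-466b, 2.23 for miR-139-5p, 1.70 for miR-487b, 1.63 for miR-494, 1.13 for miR-145, 1.09 for miR-320, 1.09 for miR-223, 1.01 for miR-126* and 1.01 for miR-212, and lower for miR-29a (-0.93) and miR-29c (-0.80). The other 7 were undetected throughout at least 1 of these groups, so their fitted values depend on the floor. They were 3.19 for miR-139-3p and 2.43 for miR-539, undetected after decompression and at least 18.4-fold and 5.49-fold higher after denervation than there. They were 2.38 for miR-188, 2.27 for miR-878, 2.19 for miR-743a, 1.80 for miR-338* and 1.42 for miR-874, undetected on all 6 arrays and at least 4.59-fold, 4.24-fold, 4.02-fold, 3.07-fold and 2.37-fold higher after denervation. These 5 entered the test only through the groups where they are high. Adjusted p-values (limma) ran from 0.000296 for miR-188 to 0.0353 for miR-29c. The denervation arrays overlapped the other 6 for miR-139-3p and miR-139-5p and not for the other 16. Control features part the same arrays, as given above, and their part in these differences was not tested.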

How the results depend on the processing

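With no scaling limma called 10 higher and 0 lower (34 and 2 at an unadjusted p under 0.05), the fold rule 4 lower, and the comparison without sham 11 in all. With the processed values as deposited limma called 0 and 0 (17 and 0 unadjusted), the fold rule 81 and 4, and the comparison without sham 8. The median of all tested miRNAs was then 1.32 and 1.82, against -0.07. Loess scaling left 12 limma and 15 fold-rule calls lower and 9 without sham, quantile scaling 13 and the percentile over all miRNAs 41 without sham. Restricting the test to miRNAs detected on all 10 arrays, which tests fewer miRNAs, gave 12 higher and 10 lower by limma, 13 and 12 by the fold rule and 14 without sham. A floor of 0.01 left 15 limma calls lower, no filter gave 49 lower by the fold rule, a limit of 3-fold 16 and 18, and a limit of 1.5-fold 50 lower. Fitting the sham and denervation arrays alone, with fewer arrays, left 1 higher and 0 lower (22 and 28 unadjusted). The share of limma calls that were higher was 42.2%, and it was 51.2% with the percentile over all miRNAs, 60.0% with loess, 54.5% for miRNAs detected on all 10 arrays, 53.1% with the lower floor, 28.6% with no filter and 100% with no scaling. Leaving out 1 injury array gave 14 to 25 higher and 23 to 29 lower by limma. By the fold rule it gave 27 to 35 and 35 to 38. The comparison without sham then gave 17 to 49 calls, its ends being without denervation 2 and without denervation 3. Replicate numbers do not pair the arrays, with correlations of deviations from -0.47 to 0.21 over same-numbered arrays. A replicate block gave 10 higher, 14 lower and 16 without sham.

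Of the 45 called miRNAs, those that turned sign under an alternative were miR-1 with the rescaled processed values (-0.67), miR-219-5p with no scaling (0.21), miR-181a and miR-181b with no scaling (0.17 and 0.22) and with the processed values (0.63 and 0.68), and miR-92a, miR-130a, miR-532-5p and miR-99a* with the processed values (0.37, 0.21, 0.31 and 0.28). The cause was not tested. Of 2030 values of 86 named miRNAs under the alternatives, 1740 kept direction and side of the threshold or were called in neither, 72 of these with the opposite sign, 255 lost and 25 gained a call. The single sham array and signals near the floor limit what can be read, above all for the 8 higher miRNAs not detected on the sham array.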

Other observations

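Detection calls and signals did not always go together. let-7a had a signal of 1205 ± 90.2 (scanner error) on the sham array and was called not detected there, while let-7e* was called detected with a signal of -1.91. On all 3 denervation arrays but not on the sham array 10 miRNAs were detected, while 7 others were seen on the sham array but not after denervation.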
